A study of Homo sapiens with 8 samples.

Results

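The integrin and focal adhesion genes are 36 genes of 22411 measured, 20 of them integrin subunits and 16 of them adaptors, kinases or caveolins that work beside integrins. They were listed by name as integrin subunits or their partners, with earlier results of these data known, and each was read from a transcript cluster, a probe group for one locus, that carries its symbol alone. ITGB1 had 3 such clusters, and the one with the greatest mean signal was used. The cells were SK-N-MC, a human line of Ewing sarcoma, a cancer mostly of bone in the young, in which an EWS fusion protein acts as the oncogene. In the YAP1/TAZ siRNA group, 4 samples were given siRNAs that target YAP1 and TAZ together, the co-activators held back by the Hippo pathway. In the control siRNA group, 4 samples received a control siRNA, whose sequence is not given in the labels. Both groups were transfected with 10 nM siRNA using Viromer Blue, and cells were collected at 72 h. All samples are of a single cell line and the labels do not say that replicates were separate cultures, so the p-values measure only the spread between these samples, which may be technical.

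Integrins are transmembrane receptors made of 1 alpha and 1 beta subunit that bind matrix proteins outside the cell. Inside, talin and kindlin bind the beta tail and activate the receptor, vinculin ties talin to actin, and a complex of ILK, PINCH and parvin adds a further link. Focal adhesion kinase and SRC phosphorylate the scaffolds paxillin and p130Cas. Adhesions sense matrix stiffness, and YAP1 and TAZ are among the factors that respond to that signal. In other adherent cells YAP1 is also known to switch on adhesion genes through TEAD proteins.

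All values are log2 signals as the authors deposited them, and a difference is the YAP1/TAZ siRNA mean minus the control siRNA mean. YAP1 read 6.27, 6.41, 6.42 and 6.40 in the YAP1/TAZ siRNA arrays, against 7.64, 7.72, 7.71 and 7.66 in the control arrays. It fell by 1.31 on the log2 scale (SE 0.053, limma adjusted p = 4.73e-05), and WWTR1, the gene of TAZ, fell by 0.62 (SE 0.064, limma adjusted p = 0.00898). Without control siRNA replicate 1 the adjusted p of WWTR1 was 0.0515. The 2-sided exact permutation p was 0.0286 for both, the smallest that 4 arrays against 4 can give. Among 7 known YAP and TAZ target genes 3 fell, 0 rose and 4 did not pass, where 0.0803% of all genes fell. The groups did not overlap for 5 of the 7 (71.4%), against 6.22% of all genes. Of the 4 that did not pass, LATS2 and CCN2 lay wholly below the controls, with differences of -0.39 and -0.45, and the rest overlapped them. The 3 that fell were CCN1, described with the integrin ligands, AJUBA and AMOTL2. AJUBA, a LIM-domain protein of cell junctions, fell by 1.08 (limma adjusted p = 0.0184). AMOTL2, a YAP-binding angiomotin, fell by 0.39 on the log2 scale (limma adjusted p = 0.0188). With 1 array left out AJUBA was missed in 6 of 8 fits and AMOTL2 in 7 of 8. Array medians lay between 4.34 and 4.49, and with 4 arrays a group the precision is limited by their number. YAP1/TAZ siRNA replicate 2 and control siRNA replicate 4 stood apart from the other arrays on the first principal component, with scaled scores of 0.57 and 0.59 against -0.31 to 0.071. The Ewing sarcoma marker CD99 averaged 12.64 ± 0.066 in YAP1/TAZ siRNA arrays and 12.56 ± 0.037 in control arrays (SD, n = 4 each), with a difference of 0.085 (limma adjusted p = 0.646). Of the 7 Ewing sarcoma markers measured, LIPI fell (by 0.63 on the log2 scale, limma adjusted p = 0.0136) and the other 6 did not pass. PRKCB, CCND1 and BCL11B lay wholly above the controls, with differences of 0.46, 0.29 and 0.22, so that 4 of the 7 markers (57.1%) had groups that did not overlap, against 6.22% of all genes. The differences within the list thus had opposite signs, and over all 7 the summed log2 signal was 83.93 to 85.07 in YAP1/TAZ siRNA arrays and 83.85 to 84.23 in control arrays. The sum over 8 epithelial markers was 42.66 to 43.00 in YAP1/TAZ siRNA arrays and 42.59 to 43.16 in control arrays. Over 6 blood cell markers it was 26.34 to 26.81 in YAP1/TAZ siRNA arrays and 26.43 to 27.04 in control arrays. For 8 fibroblast markers the sum was 46.94 to 47.72 in YAP1/TAZ siRNA arrays and 47.56 to 48.95 in control arrays, with 0 of the 8 past the test. Of these 8, 3 (37.5%) had an unadjusted limma p under 0.05, against 10.3% of all genes. They were LUM and FAP, with differences of -0.54 and -0.16, and THY1, with 0.25. The groups did not overlap for 1 of the 8 (12.5%), LUM, which lay below the controls, against 6.22% of all genes. The part of the fibroblast markers in the results was not tested.

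None of the 36 genes passed limma's test at an adjusted p under 0.05, against 48 of all 22411 genes (0.214%). The genes with the smallest adjusted p were PARVA, the gene of alpha-parvin, with 0.0628, and ITGAV, the gene of the alpha-V integrin subunit, with 0.0885. At an unadjusted p under 0.05 there were 6 of 36 (16.7%), namely PARVA, ITGAV, FERMT2, ITGA4, LIMS1 and SRC, against 10.3% of all genes. The 4 YAP1/TAZ siRNA arrays lay wholly outside the range of the 4 control arrays for 5 of the 36 (13.9%), against 6.22% of all genes. PARVA, ITGAV and FERMT2 lay below, as 2.03% of all genes did, and ITGA4 and SRC above, as 4.19% did. The arrays measured RNA of bulk cells, so less RNA in every cell and fewer cells that make it cannot be told apart.

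The median difference was -0.018 over the 36 genes and 0.0075 over all genes. It was -0.021 for the integrin subunits, with 15 below 0 and 5 above, and 0.024 for the adaptors, kinases and caveolins, with 6 below 0 and 10 above. A difference under 0.1 in size was found for 16 of the 20 integrin subunits and for 10 of the other 16. Among all genes 47.0% were below 0 and 63.9% were under 0.1 in size, and for genes at or below the median level, where 16 of the 20 integrin subunits lie, these shares were 58.5% and 74.2%. For genes above the median level, where 11 of the other 16 members lie, they were 35.5% and 53.5%. The opposite signs of the 2 medians are thus not read as a trait of the 2 classes. Of the 36, 15 had a mean signal higher than the typical gene (the median gene), 4 of them integrin subunits and 11 of them not.

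**Figure D1:**
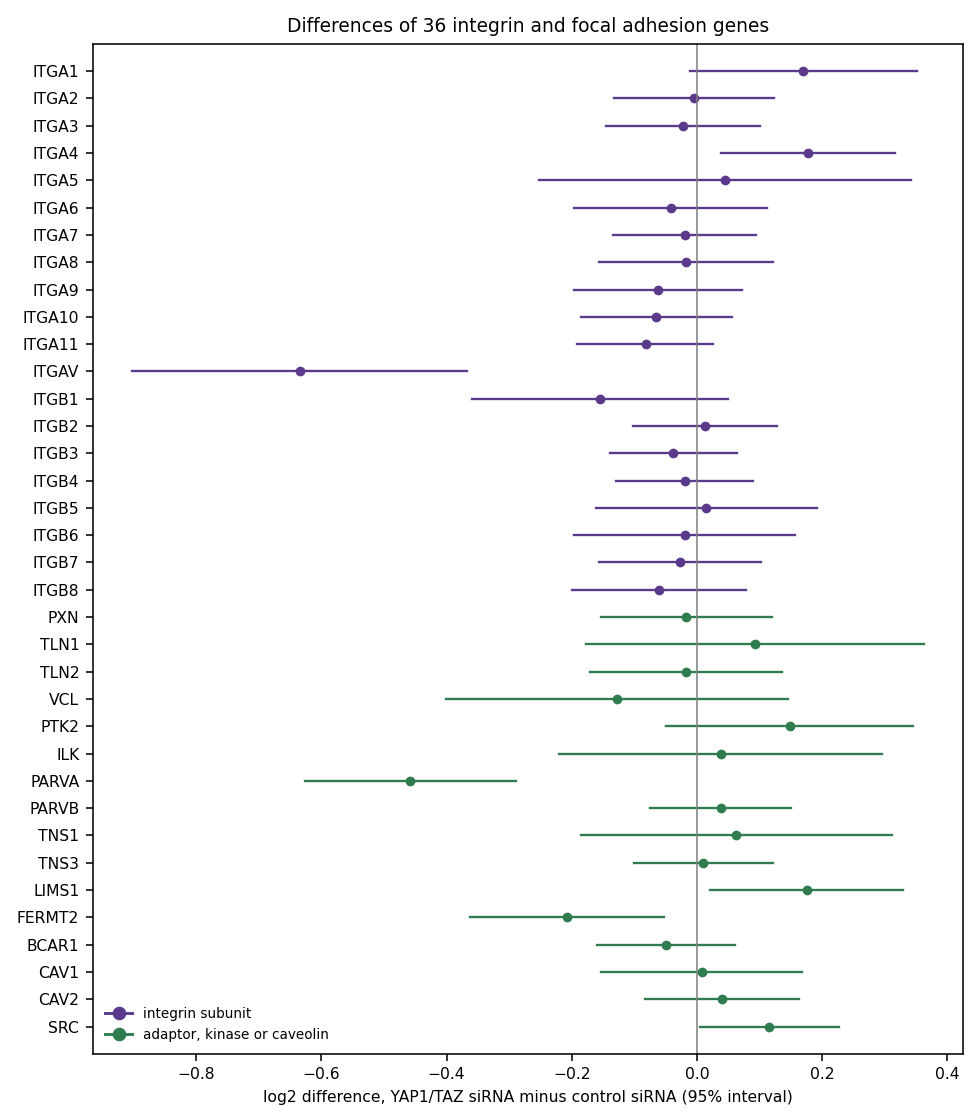
The log2 difference (YAP1/TAZ siRNA minus control siRNA, x axis) is drawn for each of 36 genes as a point with its 95% interval from limma, integrin subunits in purple and the others in green. ITGAV at -0.64 and PARVA at -0.46 lie farthest from 0, and 30 of the intervals include 0.

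**Figure D2:**
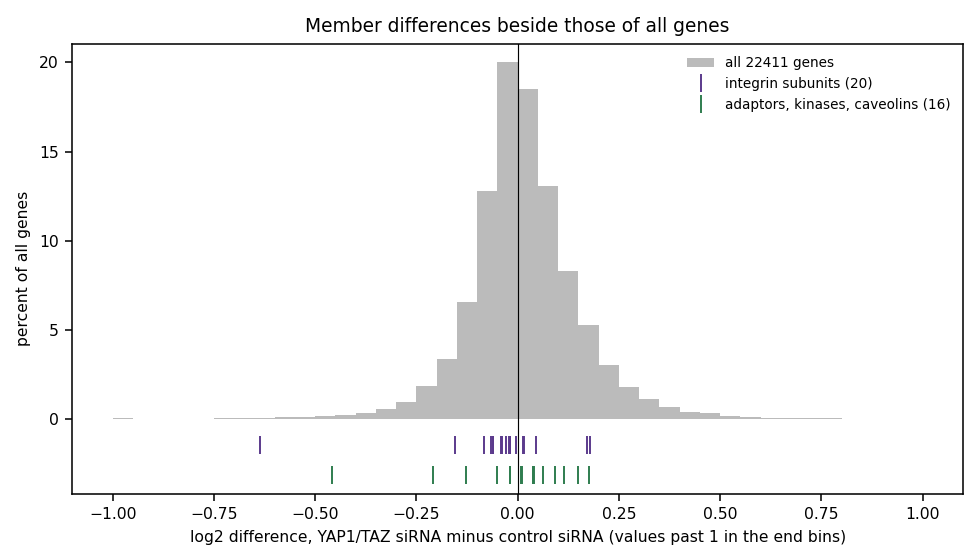
The grey histogram gives the percent of all 22411 genes in each bin of log2 difference (YAP1/TAZ siRNA minus control siRNA, x axis), and the ticks under it mark the 20 integrin subunits and the 16 other genes. Genes past 1 in size are in the end bins. All ticks but those of ITGAV, PARVA and FERMT2 lie between -0.16 and 0.18.

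ITGAV encodes an alpha subunit that pairs with several beta subunits and binds ligands with the tripeptide RGD, such as vitronectin and fibronectin. It read 9.16, 8.93, 9.50 and 9.33 in the YAP1/TAZ siRNA arrays and 9.93, 9.83, 9.73 and 9.97 in the control arrays. The groups did not overlap, and the lowest value was that of YAP1/TAZ siRNA replicate 2. The difference was -0.64 (SE 0.12, 95% interval -0.90 to -0.37, limma adjusted p = 0.0885), which is 35.6% lower on the linear scale and was not past the threshold. Without YAP1/TAZ siRNA replicate 2 it was -0.54 (limma adjusted p = 0.0533), and -0.50 (0.0725) when control siRNA replicate 4 was left out too. The test was passed in 3 of 18 alternatives: with a block for the arrays that stood apart (limma adjusted p = 0.0383), after quantile normalization (0.0401) and with array quality weights (0.0202).

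ITGA5 encodes the alpha subunit of the classical fibronectin receptor. It read 9.04, 8.64, 9.14 and 9.09 in YAP1/TAZ siRNA arrays and 9.13, 9.06, 8.82 and 8.72 in control arrays. The control arrays lay within the YAP1/TAZ siRNA range, and YAP1/TAZ siRNA replicate 2 and control siRNA replicate 4 were lowest in their groups. The difference was 0.045 (95% interval -0.25 to 0.34, limma adjusted p = 0.957), and its sign turned in 3 of 18 alternatives, among them quantile normalization (-0.001). ITGA8, a further RGD-binding alpha subunit, differed by -0.018 (SE 0.061).

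ITGB1 encodes the beta subunit that most alpha subunits share. It read 11.57, 11.60, 11.76 and 11.68 in the YAP1/TAZ siRNA arrays and 11.77, 11.73, 11.67 and 12.06 in the control arrays. The ranges overlapped, and control siRNA replicate 4 was the highest of the 8. The difference was -0.16 (SE 0.090, limma adjusted p = 0.619), and -0.071 without that array. The mean of its 3 clusters gave -0.064. The clusters not used averaged 4.27 and 3.96 over the 8 arrays, against 11.73 for the one used, so they dilute that mean.

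TEAD proteins, the DNA-binding partners of YAP1 and TAZ, recognise the letters GGAATG, which read CATTCC on the other strand. The stretches before the transcription start of ITGAV, ITGA5 and ITGB1 are shown as examples from genes that code for subunits of fibronectin receptors. A stretch of CCN2, a well-known YAP target, is shown beside them. The sequences are RefSeq's for GRCh38.p14, on the gene's strand, with each GGAATG in capitals. Those of the integrins cover the 250 bases before the start, and that of CCN2 covers 100 bases of the same window.
ITGAV, chr2:186589806-186590055, plus strand: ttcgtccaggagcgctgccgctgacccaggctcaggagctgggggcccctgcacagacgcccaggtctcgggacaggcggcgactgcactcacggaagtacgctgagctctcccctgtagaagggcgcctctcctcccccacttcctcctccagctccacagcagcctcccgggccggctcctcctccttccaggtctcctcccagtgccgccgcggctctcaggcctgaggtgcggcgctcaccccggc
ITGA5, chr12:54419267-54419516, minus strand: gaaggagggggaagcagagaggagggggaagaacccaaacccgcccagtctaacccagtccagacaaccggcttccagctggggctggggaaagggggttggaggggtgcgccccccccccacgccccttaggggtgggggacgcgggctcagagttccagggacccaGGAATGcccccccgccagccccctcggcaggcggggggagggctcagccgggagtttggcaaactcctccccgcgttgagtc
ITGB1, chr10:32958231-32958480, minus strand: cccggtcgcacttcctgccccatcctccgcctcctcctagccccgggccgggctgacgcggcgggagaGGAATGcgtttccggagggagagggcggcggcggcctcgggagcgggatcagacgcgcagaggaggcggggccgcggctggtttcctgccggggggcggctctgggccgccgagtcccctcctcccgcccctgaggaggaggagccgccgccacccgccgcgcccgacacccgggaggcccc
CCN2, chr6:131951453-131951552, minus strand: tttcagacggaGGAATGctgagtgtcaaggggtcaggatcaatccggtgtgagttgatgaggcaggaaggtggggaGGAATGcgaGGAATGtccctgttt
The motif begins 82 bases before the start in ITGA5, 182 bases before it in ITGB1, and 169, 104 and 95 bases before it in CCN2. Neither of the 2 ITGAV windows in the table holds these letters. The other ITGB1 window, which is not shown, does not hold them. Nor do the windows of ITGA4 and ITGA8, subunits that bind fibronectin or RGD and are not shown. On either strand the letters were found in 7 of the 50 windows of members (14.0%), belonging to ITGA5, ITGB1, ITGA10, VCL, PXN and TNS1, against 11.9% of all 35116 windows. Windows were found for 27 of the 36 genes, and none for PARVA. CCN2 itself averaged 4.32 ± 0.10 in YAP1/TAZ siRNA arrays and 4.76 ± 0.20 in control arrays (SD, n = 4 each; difference -0.45, limma adjusted p = 0.145). Each motif match is a description of these letters only.

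The beta subunits that can take the place of ITGB1 beside ITGAV differed between the groups by less than their standard error. ITGB5, a vitronectin receptor subunit, read 8.40, 8.19, 8.54 and 8.48 in YAP1/TAZ siRNA arrays and 8.42, 8.43, 8.33 and 8.37 in control arrays. YAP1/TAZ siRNA replicate 2 was the lowest of the 8, and the control arrays lay within the YAP1/TAZ siRNA range. The difference was 0.015 (95% interval -0.16 to 0.19, limma adjusted p = 0.978), and its sign turned in 4 of 18 alternatives. ITGB3, the beta subunit of platelets and osteoclasts, read 4.19, 4.14, 4.20 and 4.20 in YAP1/TAZ siRNA arrays and 4.18, 4.23, 4.23 and 4.24 in control arrays. These overlapped through control siRNA replicate 1, and ITGB3 differed by -0.038 (95% interval -0.14 to 0.064). ITGB6, a subunit of epithelial cells, differed by -0.020, and ITGB8, which with ITGAV activates latent TGF-beta, by -0.060. ITGB2, the leukocyte subunit, ITGB4, the laminin-binding subunit of hemidesmosomes, and ITGB7, a subunit of gut-homing lymphocytes, differed by 0.012, -0.020 and -0.028. Signal of these genes lay between 3.66 and 4.57 on every array for ITGB2, ITGB3, ITGB4, ITGB6, ITGB7 and ITGB8.

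ITGA4 encodes an alpha subunit that binds fibronectin and VCAM1. It read 4.80, 4.82, 4.97 and 4.86 in YAP1/TAZ siRNA arrays and 4.75, 4.57, 4.70 and 4.72 in control arrays. Every YAP1/TAZ siRNA array was above every control array, the nearest being 4.80 and 4.75. ITGA4 lay below the median gene on every array. The difference was 0.18 (SE 0.062, unadjusted p = 0.0185, limma adjusted p = 0.352). ITGA9, its closest relative, differed by -0.062 (SE 0.059).

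Of the 4 collagen-binding alpha subunits, ITGA1 had the largest difference, 0.17 (SE 0.080, limma adjusted p = 0.522). ITGA2, ITGA10 and ITGA11 differed by -0.005, -0.065 and -0.082. A cluster shared by ITGA1 and PELO was not used. The 3 laminin-binding alpha subunits, ITGA3, ITGA6 and ITGA7, differed by -0.022, -0.042 and -0.020. Over the collagen- and laminin-binding subunits the 95% intervals ran from -0.20 to 0.35.

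Among the adaptors, the ILK, PINCH and parvin complex held the member with the smallest p. PARVA encodes alpha-parvin, an actin-binding protein that docks on ILK. It read 6.74, 6.53, 6.73 and 6.75 in YAP1/TAZ siRNA arrays and 7.28, 7.16, 7.11 and 7.03 in control arrays. The groups did not overlap, with 6.75 and 7.03 as the nearest values, and YAP1/TAZ siRNA replicate 2 was the lowest. The difference was -0.46 (SE 0.074, 95% interval -0.63 to -0.29, limma adjusted p = 0.0628), which is 27.2% lower on the linear scale. The test was passed in 6 of 18 alternatives, among them that without YAP1/TAZ siRNA replicate 2, where the difference was -0.41 (limma adjusted p = 0.0462), and with that array and control siRNA replicate 4 both left out, where it was -0.44 (0.0337). It was missed in the other 7 fits that left out 1 array, and after median centring of the arrays (0.132).

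PARVB, the gene of beta-parvin, read 4.42, 4.50, 4.42 and 4.37 in YAP1/TAZ siRNA arrays and 4.38, 4.34, 4.42 and 4.42 in control arrays. These ranges overlapped. The difference was 0.038 (95% interval -0.075 to 0.15, limma adjusted p = 0.879). ILK, the integrin-linked pseudokinase at the centre of the complex, read 9.36, 8.93, 9.32 and 9.37 in YAP1/TAZ siRNA arrays, against 9.34, 9.31, 9.15 and 9.03 in control arrays. YAP1/TAZ siRNA replicate 2 and control siRNA replicate 4 gave the lowest value of their groups, and the ranges overlapped. The ILK difference was 0.038 (95% interval -0.22 to 0.30), with the sign turned in 4 of 18 alternatives.

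LIMS1 encodes PINCH1, the LIM-domain protein that joins ILK. It read 6.63, 6.73, 6.87 and 6.85 in YAP1/TAZ siRNA arrays and 6.50, 6.61, 6.63 and 6.64 in control arrays. The groups overlapped only at the edge, where the highest control array read 6.64 and the lowest YAP1/TAZ siRNA array 6.63. The difference was 0.18 (SE 0.068, unadjusted p = 0.0300, limma adjusted p = 0.411). LIMS1 has near-identical copies, and a cluster it shares with LIMS3 was not used. Of the 4 genes of the complex 0 passed, and those with an unadjusted p under 0.05 pointed in opposite directions.

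**Figure D3:**
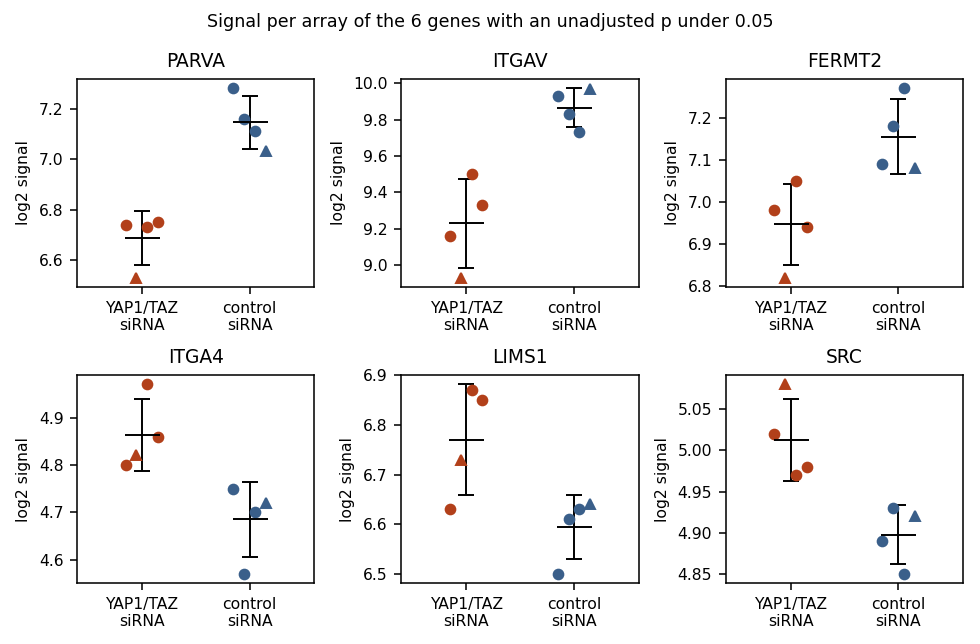
Log2 signal per array (y axis, with its own range in each panel and not starting at 0) is shown for the 6 genes with an unadjusted p under 0.05, YAP1/TAZ siRNA at left and control siRNA at right. Bars give the mean and SD of 4 arrays, and triangles mark YAP1/TAZ siRNA replicate 2 and control siRNA replicate 4. In the PARVA panel the groups lie apart (highest YAP1/TAZ siRNA array 6.75, lowest control array 7.03), and in the LIMS1 panel they overlap at the edge.

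FERMT2 encodes kindlin-2, which binds the beta tail and helps talin activate integrins. It read 6.98, 6.82, 7.05 and 6.94 in YAP1/TAZ siRNA arrays and 7.09, 7.18, 7.27 and 7.08 in control arrays. The groups did not overlap, with 7.05 and 7.08 as the nearest values. The difference was -0.21 (SE 0.068, unadjusted p = 0.0145, limma adjusted p = 0.324), and its adjusted p lay between 0.101 and 0.603 over 18 alternatives.

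TLN1, the main talin, read 9.13, 8.87, 9.23 and 9.27 in YAP1/TAZ siRNA arrays and 9.23, 9.11, 9.03 and 8.76 in control arrays. The ranges overlapped, and the difference was 0.092 (95% interval -0.18 to 0.36, limma adjusted p = 0.873). TLN2, the second talin, differed by -0.018 (SE 0.068). VCL, the gene of vinculin, read 7.36, 6.93, 7.37 and 7.54 in YAP1/TAZ siRNA arrays and 7.48, 7.52, 7.34 and 7.37 in control arrays. YAP1/TAZ siRNA replicate 2 was the lowest of all, and the other 7 arrays spanned 7.34 to 7.54. The VCL difference was -0.13 (95% interval -0.40 to 0.15), and -0.004 without that array.

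PTK2, the gene of focal adhesion kinase, read 8.64, 8.43, 8.80 and 8.73 in YAP1/TAZ siRNA arrays and 8.53, 8.60, 8.50 and 8.38 in control arrays. YAP1/TAZ siRNA replicate 2 lay within the control range and the other 3 lay above it. The difference was 0.15 (95% interval -0.050 to 0.35, limma adjusted p = 0.627). SRC, the kinase that acts with it, read 5.02, 5.08, 4.97 and 4.98 in YAP1/TAZ siRNA arrays and 4.89, 4.93, 4.85 and 4.92 in control arrays. Those groups did not overlap, yet the difference was only 0.12 (SE 0.049, unadjusted p = 0.0433, limma adjusted p = 0.459). The mean signal of SRC was below that of the median gene. PXN, the scaffold paxillin, read 7.28, 7.16, 7.28 and 7.07 in YAP1/TAZ siRNA arrays and 7.19, 7.25, 7.21 and 7.21 in control arrays. The control arrays lay within the YAP1/TAZ siRNA range. PXN differed by -0.018 (95% interval -0.15 to 0.12), with the sign turned in 1 of 18 alternatives. BCAR1, the gene of p130Cas, differed by -0.050 (SE 0.048).

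Tensins bind the beta tail in long-lived adhesions. TNS1 and TNS3 differed by 0.062 (SE 0.11) and 0.010 (SE 0.049). Caveolins coat the small membrane pits named caveolae. CAV1 read 12.91, 12.76, 12.91 and 12.91 in YAP1/TAZ siRNA arrays and 12.94, 12.95, 12.87 and 12.70 in control arrays, with YAP1/TAZ siRNA replicate 2 and control siRNA replicate 4 lowest in their groups. Its difference was 0.008 (95% interval -0.15 to 0.17, limma adjusted p = 0.986), with no steady sign, since it turned in 8 of 18 alternatives. CAV2, the partner of CAV1 in caveolae, differed by 0.040 (SE 0.054).

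To ask whether related genes changed by unequal amounts, the difference of 2 log2 signals was taken within each array for 8 pairs and compared between groups with a 2-sided exact permutation test. The groups did not overlap for 3 of the 8 pairs, each with an exact permutation p = 0.0286, the smallest possible, which became 0.0762 after Benjamini-Hochberg adjustment over the 8 pairs and so was not past the threshold. PARVA minus PARVB was 2.32, 2.03, 2.31 and 2.38 in YAP1/TAZ siRNA arrays and 2.90, 2.82, 2.69 and 2.61 in control arrays, so the groups differed by -0.50 (SE 0.10). ITGAV minus ITGB1 averaged -2.42 ± 0.18 in YAP1/TAZ siRNA arrays and -1.94 ± 0.11 in control arrays (SD, n = 4 each), a difference of -0.48 (SE 0.10). ITGAV minus ITGA5 averaged 0.25 ± 0.10 in YAP1/TAZ siRNA arrays and 0.93 ± 0.22 in control arrays, a difference of -0.68 (SE 0.12). All 3 differences kept their sign in the 14 alternatives run on the pairs, but most of these could not have turned it. Leaving out arrays cannot reverse groups that do not overlap. Centring cancels within an array, and the block fits left the differences as they were. The 3 pairs rest on PARVA and ITGAV, whose group differences were known beforehand. PARVB lay below the median gene on every array and no measure of background was used, so its pair restates the PARVA difference and does not show that the parvins changed unequally.

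ITGA5 minus ITGB1 differed by 0.20 (SE 0.19, exact permutation p = 0.371), and ITGB3 minus ITGB5 by -0.053 (SE 0.070, exact permutation p = 0.514). TLN1 minus TLN2 differed by 0.11 (SE 0.091), TNS1 minus TNS3 by 0.053 (SE 0.13) and CAV1 minus CAV2 by -0.032 (SE 0.10), with exact permutation p of 0.286, 0.886 and 0.771. Of these 5 pairs, 3 changed sign in 1 or more alternatives. TNS3, CAV2 and ITGB3 lay below the median gene on every array, so their pairs cannot show whether both genes changed alike.

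**Figure D4:**
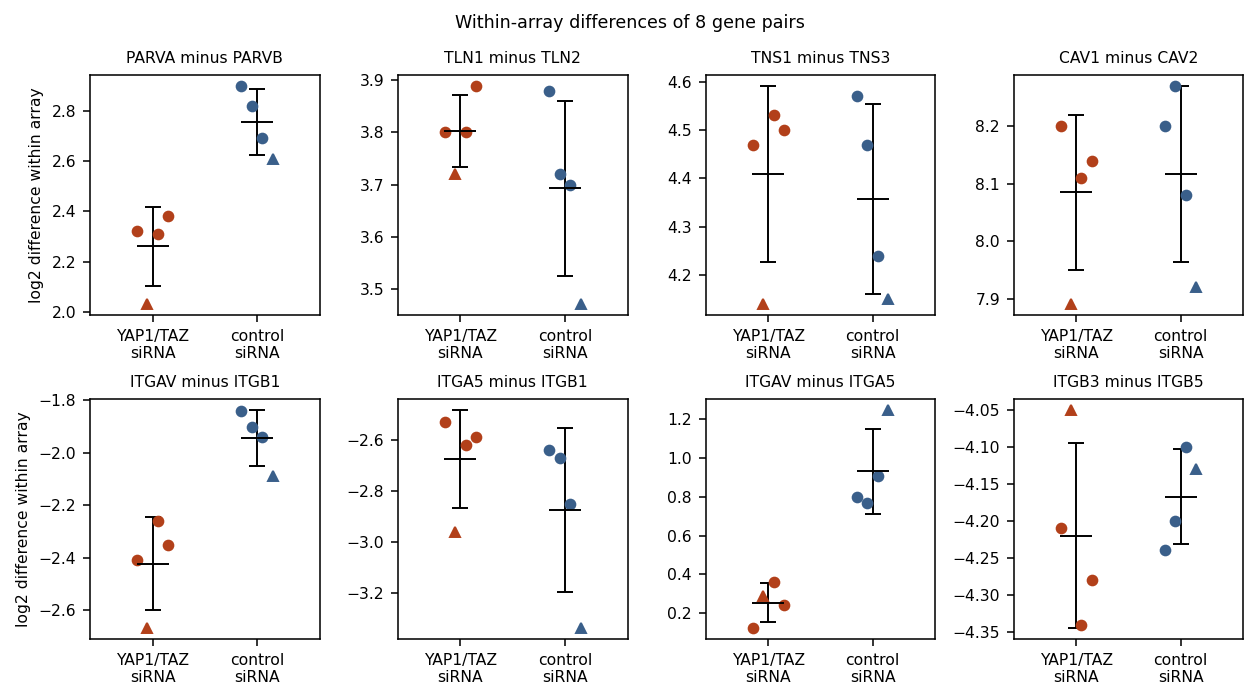
Within-array log2 differences (y axis, with its own range in each panel) are shown for 8 gene pairs, YAP1/TAZ siRNA at left and control siRNA at right, with mean and SD of 4 arrays and triangles for YAP1/TAZ siRNA replicate 2 and control siRNA replicate 4. The groups are separate for PARVA minus PARVB, ITGAV minus ITGB1 and ITGAV minus ITGA5, and overlap for the other 5.

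Many genes had an extreme value of their group on the arrays that stood apart. Of the 15 brighter genes, 12 had their lowest YAP1/TAZ siRNA value on replicate 2 and 9 had their lowest control value on replicate 4, with 9 doing both. Of all genes above the median level, 56.7% had the first, 46.8% the second and 36.3% both, and nothing particular to the adhesion genes is read from these counts. Of the other 21 genes, 1 did both, and 6 had their highest value of both groups on these arrays, against 2.52% and 28.5% of all genes at or below the median level. When neither array was used, PARVA passed and the other 35 genes did not, where 0.839% of all genes passed. With them fitted as a block PARVA and ITGAV passed, where 1.96% of all genes did.

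**Figure D5:**
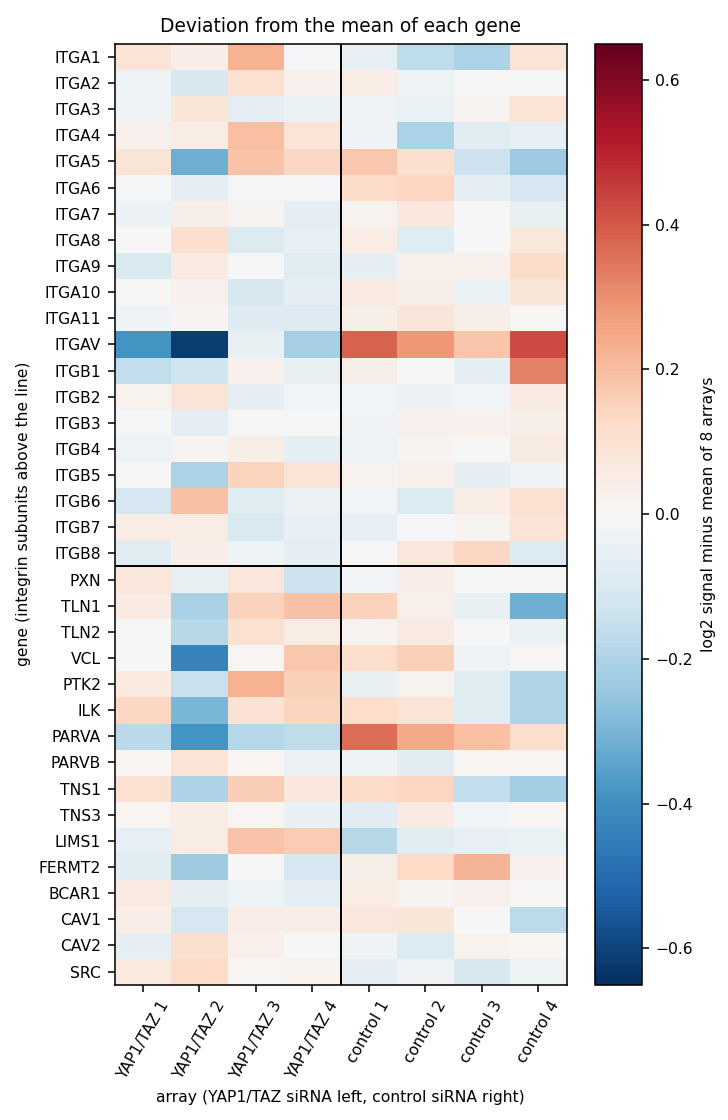
Each cell gives the log2 signal of a gene on an array minus that gene's mean over 8 arrays, from blue (lower) to red (higher), with YAP1/TAZ siRNA arrays left and control siRNA arrays right of the line. ITGAV and PARVA are blue in the left and red in the right columns, while TLN1, ILK, ITGA5 and TNS1 are blue on YAP1/TAZ siRNA replicate 2 and control siRNA replicate 4.

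Other genes of the adhesion system came from lists written from general knowledge. Of 21 integrin ligands measured, 0 rose, 2 fell and 19 did not pass, where 0.134% of all genes rose and 0.0803% fell. CCN1, a secreted matricellular ligand of ITGAV integrins and a known YAP target, averaged 5.61 ± 0.029 in YAP1/TAZ siRNA arrays and 6.66 ± 0.14 in control arrays (SD, n = 4 each; difference -1.05, limma adjusted p = 0.00122). VCAM1, a cell-surface ligand of ITGA4 integrins, averaged 6.53 ± 0.096 in YAP1/TAZ siRNA arrays and 7.09 ± 0.12 in control arrays (SD, n = 4 each), and it fell by 0.56 (limma adjusted p = 0.0327). VCAM1 passed without control siRNA replicate 4 and without YAP1/TAZ siRNA replicate 2, missed in the other 6 fits that left out 1 array, and missed with arrays centred (limma adjusted p = 0.0817), while CCN1 passed in all of these. TNC, the matrix protein tenascin-C, differed by 0.41 (SE 0.087, limma adjusted p = 0.123) and FN1, fibronectin, by 0.53 (SE 0.14, limma adjusted p = 0.189). CCN2, also on this list, differed by -0.45 (limma adjusted p = 0.145). Of the 21 ligands, 7 (33.3%) had an unadjusted p under 0.05, 3 up and 4 down, against 10.3% of all genes. The groups did not overlap for 6 (28.6%), 4 below and 2 above, against 6.22% of all genes. The ligands' median difference was -0.022.

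Of 33 other focal adhesion proteins measured, 0 passed and 4 (12.1%) had an unadjusted p under 0.05, close to the 10.3% of all genes, with a median difference of 0.030. The groups did not overlap for 4 (12.1%), 2 below and 2 above, against 6.22% of all genes. The smallest p were those of FYN, ITGB1BP1 and ZYX. FYN, a kinase of the SRC family, differed by 0.31 (SE 0.086, limma adjusted p = 0.233). ITGB1BP1, which competes with talin for the beta tail, differed by 0.24 (SE 0.069, limma adjusted p = 0.234), and ZYX, zyxin, by -0.14 (SE 0.049, limma adjusted p = 0.362). None of 6 other integrin subunits, 11 membrane partners of integrins or 5 caveola proteins passed, and 0 of these had an unadjusted p under 0.05. Their smallest adjusted p were 0.822 for ITGAM, 0.511 for CD63 and 0.618 for CAVIN3.

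The 5 genes outside the list whose log2 signal followed PARVA most closely over the 8 arrays were SLC16A4, PCDH18, MTA2, IGHV3-23 and PPP2R3A, with Pearson's r from 0.976 to 0.987. In each of them every YAP1/TAZ siRNA array lay below every control array, as for PARVA, so the coefficients reflect the split between groups as well as the spread within them. MTA2, part of the chromatin remodeller NuRD, fell by 1.05 (SE 0.12, limma adjusted p = 0.0184). PCDH18, a protocadherin, averaged 7.36 ± 0.15 in YAP1/TAZ siRNA arrays and 7.86 ± 0.14 in control arrays (SD, n = 4 each; limma adjusted p = 0.0936).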

How the data were processed

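Whole-transcript arrays measured RNA from 8 samples of SK-N-MC cells. The authors deposited log2 signals, 1 for each transcript cluster and array, and the submitters' processing notes name Transcriptome Analysis Console. Its version, the background correction and the normalization are unstated in the labels, and the log2 base was read from the range (2.27 to 19.93). Of 67528 clusters, 23781 had 1 gene symbol in the platform annotation. Symbols were updated with RefSeq names, and the cluster with the highest mean was kept for each of 22411 genes, with no filter on dim genes. All 36 members matched.

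Each gene was fitted in limma 3.58.1 under R 4.3.3 on group alone (lmFit, eBayes; 6 residual and 2.784 prior degrees of freedom), and p-values were adjusted over all 22411 genes by Benjamini-Hochberg, with a threshold of 0.05. The fit was tested on simulated data. The 8 pairs were tested with 2-sided exact permutation tests. Array values were given for members with an unadjusted p under 0.05 or groups that did not overlap and for a set of receptor and adaptor genes whatever their p. From the other lists the text names genes that passed and up to 3 more with the smallest p, and it names the 5 genes outside the list that correlate most with PARVA. The members, lists, pairs and alternatives were all chosen with earlier results of these data known. Alternatives were a replicate block, quantile normalization, centring, leaving out dim genes, the mean of clusters, every cluster, limma-trend with robust eBayes, array weights, leaving out each array, and leaving out or blocking the arrays that stood apart.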

Additional observations from a re-analysis of the deposited data

Results flagged for a closer look

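In 7 of 76 groups of 4 arrays, taken over the 36 genes, YAP1 and WWTR1, 1 array lay far from the other 3 by Dixon's test. Chance alone would flag about 1 in 20 independent groups of unrounded values. These groups share the same 8 arrays and values rounded to 2 decimals, so that rate is only a rough guide. Of the 7, 5 were on YAP1/TAZ siRNA replicate 2, one of the arrays that stood apart. That array read 8.93 for ILK, against 9.32 to 9.37 on the other YAP1/TAZ siRNA arrays. For PARVA it read 6.53, against 6.73 to 6.75. For CAV1 it read 12.76, against 12.91 on each of the others. For ITGA6 it read 4.92, against 4.97 to 4.98, and for ITGB3 4.14, against 4.19 to 4.20. YAP1/TAZ siRNA replicate 1 gave 6.27 for YAP1, where the others of its group spanned 6.40 to 6.42. ITGB3 read 4.18 on control siRNA replicate 1, against 4.23 to 4.24 on the other control arrays.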

How the results depend on the processing

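The count of 0 members passing limma's test became 2 (ITGAV and PARVA) after quantile normalization, with array quality weights and with the arrays that stood apart as a block. It became 1 (PARVA) with dim genes left out and without the arrays that stood apart, and ranged from 0 to 1 when each array was left out in turn. It stayed 0 with the replicate block, with arrays centred on their medians, with the mean of clusters, with every cluster and with limma-trend, and 3 to 8 members had an unadjusted p under 0.05 over all settings. The count over all genes was 48, and it was 3 with the replicate block, 25 with centring and 72 after quantile normalization. It was 559 with array weights, 188 without the arrays that stood apart, 439 with those as a block and 12 to 166 with 1 array left out. With dim genes left out it was 82, of only 11202 genes over which p-values were then adjusted. The adjusted p of PARVA ran from 0.0077 to 0.271 and that of ITGAV from 0.0202 to 0.3, both highest with the replicate block. WWTR1 kept its difference of -0.62 with the replicate block but had an adjusted p of 0.147, and its difference ran from -0.648 to -0.582 with 1 array left out, with an adjusted p of 0.0515 without control siRNA replicate 1. YAP1 passed under all 18 alternatives. The count of other adhesion-system genes passing was 2, and 0 with the replicate block (adjusted p 0.0621 for CCN1 and 0.208 for VCAM1), 1 (CCN1) with centring, 7 with array weights, 6 with the arrays that stood apart as a block and 1 to 4 with 1 array left out.

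Signs turned for members with differences near 0. For a gene with a single cluster, several alternatives leave the difference as it was and could not turn its sign. These are both block fits, leaving out dim genes, the mean of clusters, every cluster and limma-trend. Counts of turned signs over all alternatives therefore overstate how steady a sign is. ITGA5 gave -0.001 after quantile normalization and from -0.026 to 0.157 with 1 array left out. ITGB5 gave -0.04 after quantile normalization and from -0.031 to 0.086 with 1 array left out. ILK gave -0.004 after quantile normalization and from -0.022 to 0.142 with 1 array left out. PXN gave from -0.045 to 0.025 with 1 array left out, positive without YAP1/TAZ siRNA replicate 4. CAV1 gave -0.005 after quantile normalization, -0.002 with centring, -0.01 with array weights and without the arrays that stood apart, and from -0.048 to 0.045 with 1 array left out. The median of the integrin subunits was -0.07 with dim genes left out, a setting that keeps 4 of them, and that of the other members was -0.01 without control siRNA replicate 4. Among the pairs, TNS1 minus TNS3 gave -0.017 after quantile normalization and from -0.017 to 0.143 with 1 array left out. ITGB3 minus ITGB5 gave 0.018 after quantile normalization, and CAV1 minus CAV2 from -0.098 to 0.033 with 1 array left out. The other 5 pairs kept their sign, with an exact permutation p of 0.125 for the 3 separate pairs under the replicate block, the smallest that 4 pairs allow. Where else a value changed with the setting, the cause was not tested.

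Same-numbered arrays deviated from their group means with correlations of 0.368, -0.47, 0.016 and -0.389 for replicates 1 to 4. Of the 4, 1 correlated best with its own number. The arrays that stood apart carry unlike numbers and weigh on these correlations, so this check cannot decide whether the numbers pair the arrays. No measure of signal over background was used, so the precision of the 21 dimmer members is the least known.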
